A study of Mus musculus with 24 samples.

Results

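Aminoacyl-tRNA synthetases are the enzymes that join each amino acid to its tRNA. The group described here is 36 such genes, 20 for the cytosolic enzymes and 16 for the mitochondrial ones, chosen by name from the 53465 genes of the deposited count table. Symbols that end in 2 stand for the mitochondrial enzymes, all of them encoded in the nucleus. Their transcripts were followed by RNA sequencing in RN2 cells, a murine acute myeloid leukaemia cell line whose labelled genotype is Mll-Af9; NrasG12D. All cells, controls included, carried that genotype and a retroviral vector with a doxycycline-inducible short hairpin RNA. The control hairpin was shRen713, in clones 2 and 7, and Ogdh was targeted by shOgdh346, in clones 1 and 5, or by shOgdh2081, in clones 3 and 5. Each clone was sampled at day 0, labelled untreated, and at day 4 of doxycycline, with 2 libraries at each time, which gave 24 libraries in 6 groups of 4. Each hairpin is therefore represented by 2 clones of 1 cell line, and p-values rest on the spread between these clones. Ogdh encodes the first component of the 2-oxoglutarate dehydrogenase complex of the tricarboxylic acid cycle, and the study's title names that enzyme as a vulnerability of acute myeloid leukaemia.

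Each synthetase recognises 1 amino acid and its tRNAs, uses ATP to activate the amino acid and passes it to the tRNA, so that ribosomes can read the code. Animal cells keep one set for the cytosol and another for the mitochondrial matrix, where the few proteins encoded by mitochondrial DNA are made. Several cytosolic synthetases are held together in the multi-synthetase complex, and others are free-standing. When an amino acid runs short, uncharged tRNA activates the kinase GCN2 (Eif2ak4), translation of the transcription factor ATF4 rises, and ATF4 is known to induce many cytosolic synthetase genes together with Asns and Chac1.

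The promoter letters of the synthetases with an ATF4-type element are shown first, a choice made with the results known. In the mean net change described below, 12 of the 13 cytosolic genes usually listed as ATF4 targets were called lower. So were 16 of all 20 cytosolic genes and 19.8% of all genes tested. The part of the element in these changes was not tested. RefSeq promoters (GRCm38.p6, 250 bases before to 50 after the annotated start) were found for 27 of the 36 genes, 1 of them by a synonym, and were searched on both strands. The letters TGATGNAA, the core shared by CCAAT/enhancer-binding and ATF elements, occurred in the promoters of 5 of 13 cytosolic and 0 of 14 mitochondrial synthetases, against 3.97% of all 32851 promoters. The stretches of 61 bases below run along the gene's own strand, 5′ to 3′, with the motif or its reverse complement in capitals. Aars holds it at 2 places.
Aars, upstream, chr8:111033704-111033764 (plus strand): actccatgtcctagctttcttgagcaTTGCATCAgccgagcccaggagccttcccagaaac
Aars, downstream, chr8:111033811-111033871 (plus strand): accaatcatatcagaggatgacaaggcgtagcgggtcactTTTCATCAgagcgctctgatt
Gars, chr6:55037945-55038005 (plus strand): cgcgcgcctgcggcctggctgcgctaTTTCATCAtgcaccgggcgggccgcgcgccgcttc
Iars, chr13:49682099-49682159 (plus strand): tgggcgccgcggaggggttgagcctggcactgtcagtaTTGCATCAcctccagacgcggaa
Tars, chr15:11399639-11399699 (minus strand): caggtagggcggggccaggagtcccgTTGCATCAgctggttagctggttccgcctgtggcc
Yars, chr4:129189872-129189932 (plus strand): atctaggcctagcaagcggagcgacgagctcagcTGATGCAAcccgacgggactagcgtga

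Counted from the annotated start, the capitals begin at position -112 in Aars (upstream), 10 in Aars (downstream), -30 in Gars, 8 in Iars, -15 in Tars, 4 in Yars. CACGTG, the E-box letters bound by MYC among other factors, occurred in 4 of 13 cytosolic promoters (Aars, Farsb, Iars and Tars) and 1 of 14 mitochondrial ones (Ears2), against 7.15% of all promoters. The motif of NRF1, also searched, occurred in 3 of 13 cytosolic promoters (Farsb, Kars and Tars) and 2 of 14 mitochondrial ones (Iars2 and Mars2), against 4.603% of all promoters. Overlap between matches of the 3 motifs was not looked for. A match describes letters only, and a window without one says nothing of the factor.

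The targeted gene was read first. At day 0, Ogdh stood at 202, 215, 245 and 249.6 CPM with the control, 126, 136, 146 and 149.8 with shOgdh346 and 180.0, 235, 163 and 172 with shOgdh2081, where CPM is the library's count scaled to a common total after composition scaling. At day 4, it stood at 206, 206, 237 and 253 CPM with the control, 35.00, 34.9, 52.8 and 57.96 with shOgdh346 and 68.5, 70.9, 32.3 and 37.84 with shOgdh2081. Values are ordered by clone, in the order in which the clones are named above, and within a clone by library number. Every library with an Ogdh hairpin lay under every control library at day 4, and the 4 shOgdh346 libraries lay under the control already at day 0. Each net change below is the log2 change from day 0 to day 4 with an Ogdh hairpin minus the same change with the control hairpin, and the mean net change averages both Ogdh hairpins. For Ogdh the mean net change was -1.76 ± 0.18 (SE; adjusted p = 0.0004). Adjusted p-values come from edgeR's quasi-likelihood test with the clone as a block, with Benjamini-Hochberg adjustment over all 14249 genes tested, and a gene was called at 0.05.

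Library totals ran from 7209186 to 20705468 counts, and a synthetase gave between 55 and 9131 counts in a library. All 36 genes passed the filter on low counts. The libraries carried myeloid transcripts throughout, with the summed level of 8 myeloid identity markers at 6716 to 7555 CPM with the control, 11428 to 12795 with shOgdh346 and 7197 to 9176 with shOgdh2081 at day 4. In the mean net change, Mpo (-2.46), Elane (-1.32) and Kit (-1.03) of these were called lower and Lyz2 (2.93), Ptprc (0.95) and Spi1 (0.62) higher. Lyz2, the lysozyme of macrophages and granulocytes, made up 8972 to 10571 CPM of the sum with shOgdh346 at day 4. At day 4 the summed levels of 5 markers each reached at most 0.769 CPM for T cells (3 at 0 in all 4 libraries of each group), 1.97 for red cells, 14.3 for B cells and 73.3 for stroma. Few of these were abundant enough to test. Both stromal markers tested, Col1a1 (5.56, with at most 1.92 CPM in any library) and Pdgfrb (0.69), and the 1 erythroid marker tested, Klf1 (1.69), were called higher in the mean net change, and neither of the 2 B cell markers was called. The part of these markers in the synthetase results was not tested.

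Relative to the control hairpin, most synthetase transcripts fell when Ogdh was knocked down. The cytosolic set had more calls and a larger median change than the mitochondrial set. In the mean net change, 16 of 20 cytosolic and 9 of 16 mitochondrial synthetases were called lower and none was called higher, where 19.8% of all genes tested were called lower and 17.9% higher. The median log2 change was -0.71 for the cytosolic set, which is 38.9% lower, -0.38 for the mitochondrial set, which is 23.3% lower, and -0.002 for all genes tested. All 36 estimates were below 0. Of the 9 mitochondrial calls, Lars2 and Mars2 were called higher from day 0 with the control hairpin. Neither was called lower from day 0 with an Ogdh hairpin, and Lars2 was called higher with shOgdh2081. At an unadjusted p under 0.05, 18 cytosolic and 10 mitochondrial genes were lower and none was higher. The share of all genes at an unadjusted p was not counted, here or for the comparisons below. The difference between the sets is described by these counts and medians and was not tested. The mitochondrial transcripts were also the less precisely measured, with standard errors of 0.089 to 0.20 on the log2 scale against 0.090 to 0.14 for the cytosolic ones.

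Counts of called genes depended on the control clones, most of all for the mitochondrial set. Without control clone 2, 14 cytosolic and 1 mitochondrial synthetases were called lower, where 8.2% of all genes were, and without control clone 7 the counts were 13 and 1, where 7.3% were. The control then rested on a lone clone, assumed to vary like the others. Leaving out any 1 of the 4 Ogdh clones gave 16 to 18 cytosolic and 9 or 10 mitochondrial calls. DESeq2 called 15 and 6, where it called 15.1% of all genes lower, and limma-voom 16 and 9, where it called 20.3%. The 11 genes called here and under all 42 alternatives were all cytosolic: Aars, Cars, Eprs, Gars, Iars, Lars, Mars, Nars, Tars, Vars and Yars.

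The change from day 0 to day 4 was also read clone by clone. The median log2 change of the cytosolic set was -0.056 and -0.036 in control clones 2 and 7, -1.01 and -0.84 in shOgdh346 clones 1 and 5, and -0.55 and -0.83 in shOgdh2081 clones 3 and 5. For the mitochondrial set the medians, in the same order, were -0.02, 0.034, -0.44, -0.44, -0.23 and -0.14. Both control clones were near 0 and each Ogdh clone was below them in both sets. At day 4 the cytosolic transcripts summed to 4369.5 to 4913 CPM with the control, 2505 to 2857 with shOgdh346 and 2781 to 3388 with shOgdh2081, and the groups of the Ogdh hairpins did not overlap the control. These are shares of each library's RNA from bulk samples, so fewer cells of a type and less RNA per cell cannot be told apart.

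The fall in the synthetases came together with other changes in the same libraries. All 8 proliferation markers were called lower, with a median of -0.997, and their summed level at day 4 was 3604 to 4052 CPM with the control, 1854 to 1955 with shOgdh346 and 1742 to 2504 with shOgdh2081. Of 10 neutrophil maturation markers, 8 were called higher, with a median of 4.000, and they summed to 398 to 1460.4, 19315 to 44005 and 7049.8 to 12627 CPM. Both sums set the control libraries apart from all Ogdh libraries at day 4. Their part in the result was not tested.

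**Figure D1:**
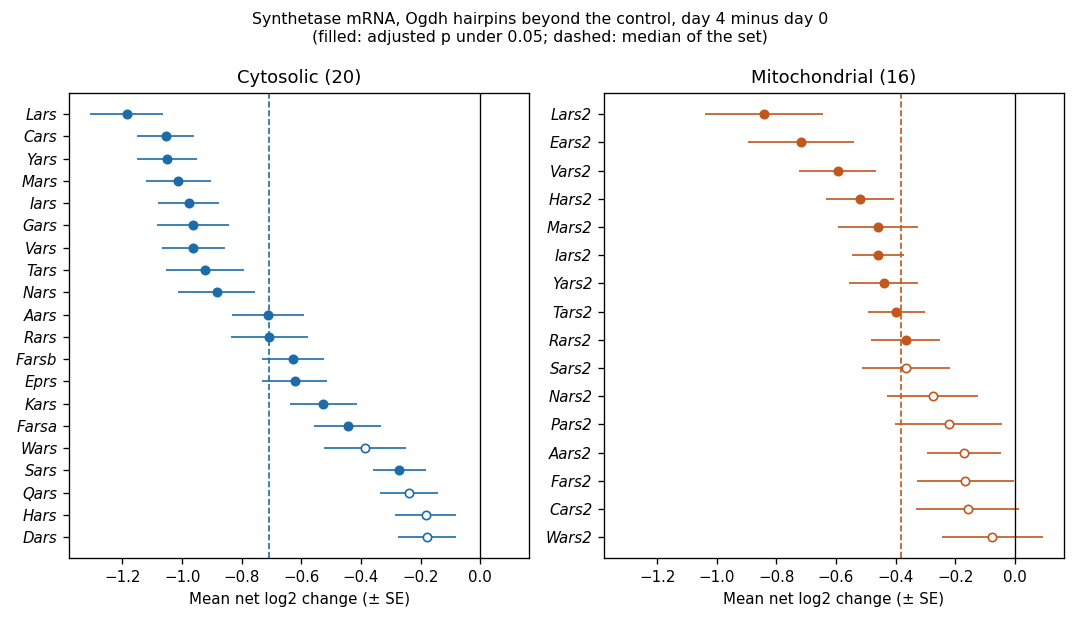
Mean net log2 change of each synthetase transcript (horizontal axis), with its standard error, for the 20 cytosolic and 16 mitochondrial genes; filled points were called at an adjusted p of 0.05. All 36 estimates lie below 0, from -1.19 for Lars to -0.076 for Wars2.

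**Figure D2:**
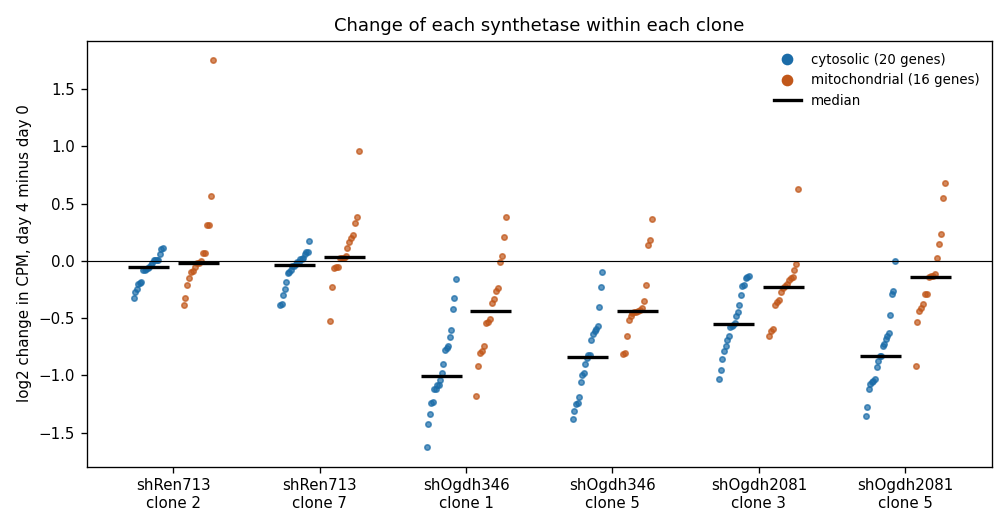
Log2 change from day 0 to day 4 of each synthetase (points) and the median of the set in each of the 6 clones, for the cytosolic and the mitochondrial genes. The medians of both control clones sit near 0 and those of the 4 Ogdh clones lie lower, down to -1.01 for the cytosolic set in shOgdh346 clone 1.

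Among the members of the multi-synthetase complex, 6 of 8 were called lower (Lars, Mars, Iars, Rars, Eprs and Kars), with a median of -0.66. Lars (ENSMUSG00000024493, chromosome 18, 42202350 to 42262122, minus strand), the leucyl-tRNA synthetase, also known as a leucine sensor for the kinase mTORC1, stood at 248.6, 223, 287 and 270.2 CPM with the control, 262, 243, 285 and 270.3 with shOgdh346 and 272, 267, 292 and 262 with shOgdh2081 at day 0. By day 4 the values were 234, 226, 275 and 255 CPM with the control, 97.04, 94.7, 117 and 115 with shOgdh346 and 139.6, 139, 109 and 104 with shOgdh2081. The control libraries kept their day 0 range, while the highest library of either Ogdh hairpin was well under the lowest control library. Its mean net change, -1.19 ± 0.12 (SE; adjusted p = 0.000212), was the most negative of the 36, and each of the 4 Ogdh clones fell further than both control clones (8 of 8 pairings).

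Iars (ENSMUSG00000037851, chromosome 13, 49682100 to 49734267, plus strand), the isoleucyl-tRNA synthetase, stood at 279, 282, 322 and 305 CPM with the control, 316, 306, 345 and 328 with shOgdh346 and 314, 317, 307 and 316 with shOgdh2081 at day 0. By day 4 the values were 279, 287, 342 and 324 CPM with the control, 144, 144, 171 and 163 with shOgdh346 and 196, 195, 160.1 and 161 with shOgdh2081. All 8 Ogdh libraries lay below all 4 control libraries, after day 0 values that overlapped. The mean net change of Iars was -0.98 ± 0.10 (SE; adjusted p = 0.000212). Mars (ENSMUSG00000040354, chromosome 10, 127296221 to 127311786, minus strand), the methionyl-tRNA synthetase, which also charges the initiator tRNA, stood at 213, 193, 215 and 207 CPM with the control, 200.4, 179.5, 209 and 208 with shOgdh346 and 181, 192, 206 and 202 with shOgdh2081 at day 0. After 4 days of doxycycline it stood at 204, 198, 210.0 and 212 CPM with the control, 82.6, 82.1, 102 and 96.1 with shOgdh346 and 113, 108, 97.3 and 96.6 with shOgdh2081. The Ogdh groups again lay wholly under the control. Mars changed by -1.01 ± 0.11 (SE; adjusted p = 0.000243), the mean net value. Its gene overlaps Ddit3 on the opposite strand, and the strand setting of the counting is not given in the sources used here, so its counts are uncertain to that extent.

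Kars (ENSMUSG00000031948, chromosome 8, 111993443 to 112011323, minus strand), the lysyl-tRNA synthetase, whose gene also gives the mitochondrial form, stood at 234, 217, 263 and 259.5 CPM with the control, 279.5, 241, 264 and 247 with shOgdh346 and 255, 248, 246 and 229 with shOgdh2081 at day 0. The day 4 values were 184, 177, 225 and 218 CPM with the control, 131, 129, 145 and 141 with shOgdh346 and 176, 168, 133 and 129 with shOgdh2081. The highest shOgdh2081 library came close to the lowest control library without overlapping it. Kars had a mean net change of -0.53 ± 0.11 (SE; adjusted p = 0.00609), a call that was lost without control clone 7 (adjusted p = 0.0838). Kars and Rars both lost their calls when clones were unpaired (adjusted p = 0.0749 and 0.0566). Eprs, which carries the glutamyl and prolyl activities in 1 protein, changed by -0.62 ± 0.11 (SE; adjusted p = 0.00229), and Rars, the arginyl-tRNA synthetase, by -0.71 ± 0.13 (SE; adjusted p = 0.00277). Qars and Dars, for glutamine and aspartate, were not called, at -0.24 ± 0.10 (SE; adjusted p = 0.0814) and -0.18 ± 0.10 (SE; adjusted p = 0.182). The call for Qars was gained without shOgdh346 clone 5 (adjusted p = 0.0396). Qars was also called with total count scaling, each library as a sample or the library number as a further block (adjusted p = 0.0231, 0.0037 and 0.00156), and Dars with that block (0.0194). Of the 3 scaffold proteins of the complex, Aimp2 changed by -0.81 ± 0.14 (SE; adjusted p = 0.00208) and Aimp1 by -0.55 ± 0.13 (SE; adjusted p = 0.0111), and Eef1e1 was not called at -0.25 ± 0.13 (SE; adjusted p = 0.158). Aimp1 lost its call without control clone 2 (adjusted p = 0.0629) or clone 7 (adjusted p = 0.102), and Eef1e1 gained one without shOgdh346 clone 1 (adjusted p = 0.0452). Aimp1 also lost it when clones were unpaired (adjusted p = 0.0532), and Eef1e1 gained one with the library number block (adjusted p = 0.042).

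Among the free-standing cytosolic enzymes, 10 of 12 were called lower, with a median of -0.80. Cars (ENSMUSG00000010755, chromosome 7, 143557230 to 143600090, minus strand), the cysteinyl-tRNA synthetase, stood at 104, 97.7, 118 and 104 CPM with the control, 98.2, 88.2, 109 and 106 with shOgdh346 and 102, 99.99, 118 and 114 with shOgdh2081 at day 0. By day 4 the values were 108, 109, 117 and 123 CPM with the control, 43.1, 44.4, 44.7 and 50.8 with shOgdh346 and 64.6, 62.9, 59.2 and 64.7 with shOgdh2081. The 4 shOgdh346 libraries were the lowest, those of shOgdh2081 came next, and the control libraries were highest, with no overlap among the 3 groups. Cars had the smallest p-value of the cytosolic genes, with a mean net change of -1.05 ± 0.10 (SE; adjusted p = 0.000127). Yars (ENSMUSG00000028811, chromosome 4, 129189760 to 129219607, plus strand), the tyrosyl-tRNA synthetase, stood at 184, 168, 193 and 185 CPM with the control, 172, 147, 200.5 and 179 with shOgdh346 and 173, 169, 196 and 182 with shOgdh2081 at day 0. At day 4 the libraries read 171, 168, 178 and 177 CPM with the control, 69.2, 62.6, 76.6 and 74.5 with shOgdh346 and 96.7, 104, 90.8 and 86.02 with shOgdh2081. The same order of the 3 groups was seen without overlap. Yars had a mean net change of -1.05 ± 0.10 (SE; adjusted p = 0.000159), although its gene overlaps C77080 on the opposite strand.

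Vars (ENSMUSG00000007029, chromosome 17, 35000987 to 35016322, plus strand), the valyl-tRNA synthetase, stood at 488, 429, 466 and 416 CPM with the control, 494, 413, 429 and 414 with shOgdh346 and 345, 389, 431 and 427 with shOgdh2081 at day 0. Its day 4 values were 373, 385, 330.0 and 354 CPM with the control, 142, 158, 158 and 166 with shOgdh346 and 174, 191, 184 and 202 with shOgdh2081. The control libraries were themselves lower than at day 0, and those of both Ogdh hairpins were lower still. Over and above the control, Vars changed by -0.96 ± 0.10 (SE; adjusted p = 0.000259). Gars (ENSMUSG00000029777, chromosome 6, 55038007 to 55079500, plus strand), the glycyl-tRNA synthetase, another gene that serves both compartments, stood at 301, 239.7, 359 and 306 CPM with the control, 319, 262, 384 and 324 with shOgdh346 and 331, 303, 330.4 and 273 with shOgdh2081 at day 0. On day 4 they read 234, 238, 301 and 295 CPM with the control, 129, 128, 147 and 149.8 with shOgdh346 and 174, 176, 119.6 and 125 with shOgdh2081. Day 0 values of Gars spread widely in every group, and at day 4 the Ogdh libraries lay below all control libraries. Gars had a mean net change of -0.96 ± 0.12 (SE; adjusted p = 0.000463).

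Among the other free-standing enzymes, Tars, for threonine, changed by -0.92 ± 0.13 (SE; adjusted p = 0.000884) and Nars, for asparagine, by -0.88 ± 0.13 (SE; adjusted p = 0.000994). Aars, for alanine, changed by -0.71 ± 0.12 (SE; adjusted p = 0.00209). The alpha and beta chains of the phenylalanyl-tRNA synthetase, Farsa and Farsb, changed by -0.45 ± 0.11 (SE; adjusted p = 0.0138) and -0.63 ± 0.10 (SE; adjusted p = 0.00181). Farsa lost its call without control clone 2 (adjusted p = 0.141) or clone 7 (adjusted p = 0.0781). Farsb lost its call when clones were unpaired (adjusted p = 0.0605). Hars, for histidine, was not called at -0.18 ± 0.10 (SE; adjusted p = 0.19), and its gene shares sequence positions with Hars2 on the opposite strand. Without shOgdh2081 clone 3, Hars was called (adjusted p = 0.0482). It was also called with total count scaling or the library number block (adjusted p = 0.0467 and 0.0317). Sars, for serine, passed at -0.27 ± 0.09 (SE; adjusted p = 0.0407), and Wars, for tryptophan, did not at -0.39 ± 0.14 (SE; adjusted p = 0.0521). The call for Sars was lost without any 1 of 6 libraries, with adjusted p-values from 0.0501 to 0.103: clone 2 replicate 2 and clone 7 replicate 2 of the control at day 0, clone 1 replicate 1 and clone 5 replicate 2 of shOgdh346 at day 0, clone 3 replicate 1 of shOgdh2081 at day 0, clone 7 replicate 2 of the control at day 4. It was also lost without control clone 2 or 7, shOgdh346 clone 5 or shOgdh2081 clone 5 (adjusted p = 0.286, 0.199, 0.066 and 0.0534). Other settings that ended the call for Sars were RLE scaling, upper quartile scaling, no filter on low counts and a filter of 5 CPM (adjusted p = 0.0735, 0.0703, 0.0805 and 0.0733). DESeq2, unpaired clones and day 0 replicate 1 alone did so too (adjusted p = 0.134, 0.363 and 0.0728). Wars was called without any 1 of 12 libraries, with adjusted p-values from 0.0279 to 0.0499: clone 2 replicate 1 and clone 7 replicate 1 of the control at day 0, clone 1 replicate 2 and clone 5 replicate 2 of shOgdh346 at day 0, clone 3 replicate 2 and clone 5 replicate 1 of shOgdh2081 at day 0, clone 2 replicate 1 of the control at day 4, clone 1 replicate 2 and clone 5 replicate 1 of shOgdh346 at day 4, clone 3 replicate 1 and clone 3 replicate 2 and clone 5 replicate 1 of shOgdh2081 at day 4. Wars was also called without shOgdh2081 clone 3 or 5 (adjusted p = 0.00316 and 0.0448). The same held with total count scaling, no filter on low counts, each library as a sample, the library number block or day 0 replicate 1 alone (adjusted p = 0.014, 0.00686, 0.00325, 0.00086 and 0.0457).

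**Figure D3:**
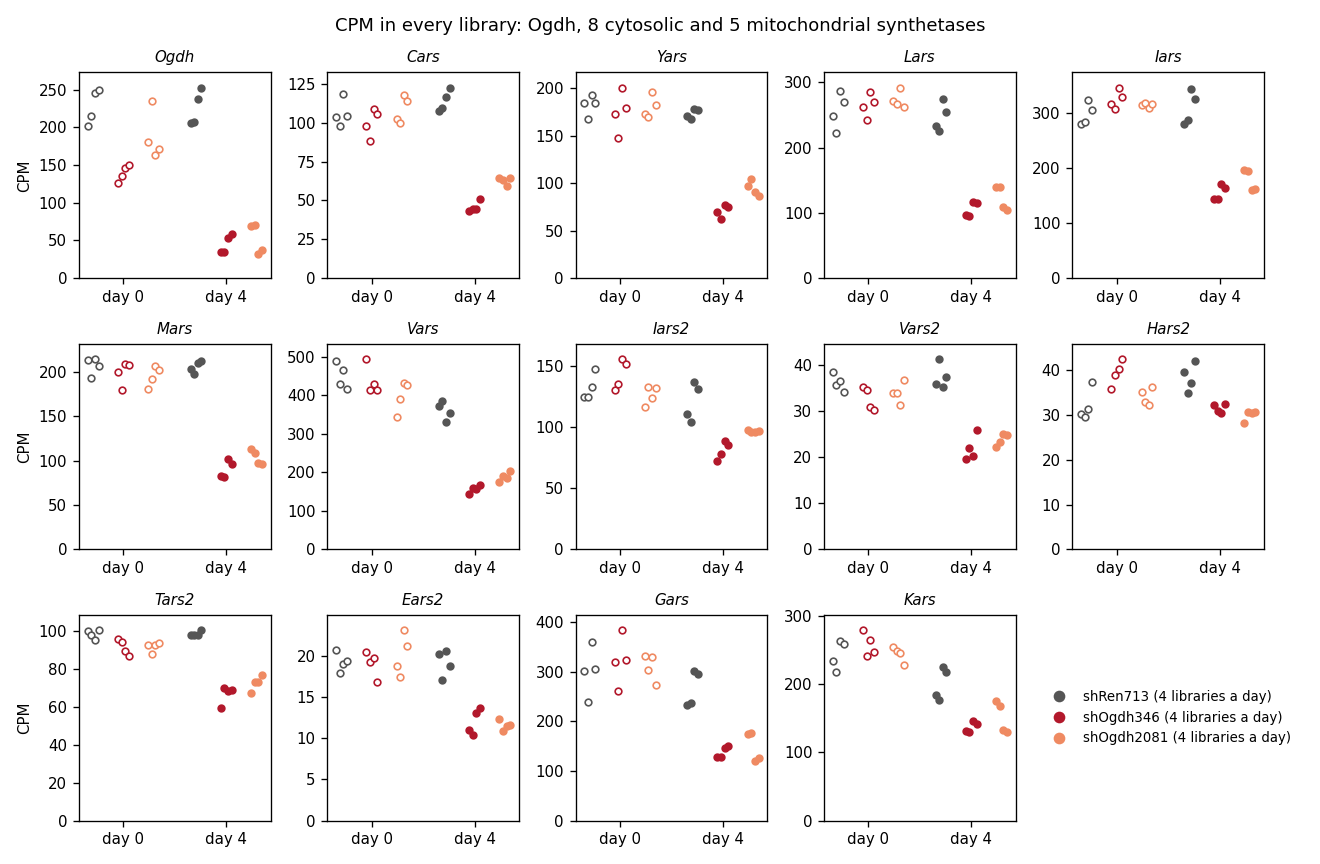
Level of Ogdh, 8 cytosolic and 5 mitochondrial synthetases in each of the 24 libraries (CPM, each panel with its own axis from 0), by hairpin and day. In every panel the 8 Ogdh libraries at day 4 lie under the 4 control libraries at day 4; at day 0 no synthetase has all 8 Ogdh libraries on one side of the control.

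Cytosolic synthetases were also grouped by their known regulation. Of 13 cytosolic genes usually listed as ATF4 targets, 12 were called lower, with a median of -0.96. Of the other 7, 4 were called lower, with a median of -0.45. The genes whose promoters are printed above changed by -0.71 (Aars), -0.96 (Gars), -0.98 (Iars), -0.92 (Tars) and -1.05 (Yars), and those whose windows lack the letters by -1.01 (Mars), -0.63 (Farsb), -0.62 (Eprs), -0.53 (Kars), -0.45 (Farsa), -0.27 (Sars), -0.24 (Qars) and -0.18 (Dars). The cytosolic genes that were not searched changed by -1.19 (Lars), -1.05 (Cars), -0.96 (Vars), -0.88 (Nars), -0.71 (Rars), -0.39 (Wars) and -0.18 (Hars). Synthetases also fall into class I and class II, which have unrelated catalytic folds. Among cytosolic genes, 7 of 9 in class I and 8 of 10 in class II were called lower, with medians of -0.98 and -0.58, leaving out Eprs, which joins one of each class. Among mitochondrial genes the counts were 7 of 9 and 2 of 7, with medians of -0.46 and -0.28. None of these differences between lists was tested.

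The mitochondrial synthetases called lower were Ears2, Hars2, Iars2, Lars2, Mars2, Rars2, Tars2, Vars2 and Yars2. Iars2 (ENSMUSG00000026618, chromosome 1, 185284726 to 185329396, minus strand), the mitochondrial isoleucyl-tRNA synthetase, stood at 124, 125, 133 and 148 CPM with the control, 130.4, 135, 156 and 151 with shOgdh346 and 116, 133, 124 and 132 with shOgdh2081 at day 0. By day 4 the values were 111, 105, 137 and 131 CPM with the control, 72.04, 78.2, 88.4 and 85.7 with shOgdh346 and 97.95, 96.2, 95.99 and 96.5 with shOgdh2081. The 4 shOgdh346 libraries were lowest, and the shOgdh2081 libraries lay just below the lowest control library. Iars2 had the smallest p-value of the set, with a mean net change of -0.46 ± 0.089 (SE; adjusted p = 0.00378), and lost its call without control clone 7 (adjusted p = 0.101). With unpaired clones the adjusted p of Iars2 was 0.0712. Its gene overlaps Rab3gap2 on the opposite strand. Vars2 (ENSMUSG00000038838, chromosome 17, 35655634 to 35667592, minus strand), which charges mitochondrial valine tRNA, stood at 38.5, 35.5, 36.6 and 34.1 CPM with the control, 35.2, 34.5, 30.8 and 30.2 with shOgdh346 and 33.99, 33.9, 31.4 and 36.7 with shOgdh2081 at day 0. At day 4 it stood at 35.95, 41.3, 35.2 and 37.4 CPM with the control, 19.6, 21.9, 20.2 and 25.9 with shOgdh346 and 22.2, 23.2, 25.1 and 24.8 with shOgdh2081. All 8 Ogdh libraries were below all 4 control libraries. Vars2 had a mean net change of -0.59 ± 0.13 (SE; adjusted p = 0.00682).

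Tars2 (ENSMUSG00000028107, chromosome 3, 95739976 to 95760206, minus strand), which charges mitochondrial threonine tRNA, stood at 100.2, 98.1, 95.2 and 101 CPM with the control, 95.9, 94.4, 89.3 and 87.03 with shOgdh346 and 92.8, 87.9, 92.9 and 93.7 with shOgdh2081 at day 0. By day 4 the values were 97.9, 97.8, 98.1 and 101 CPM with the control, 59.2, 69.97, 68.5 and 69.1 with shOgdh346 and 67.2, 73.1, 72.9 and 76.7 with shOgdh2081. The control libraries were tightly grouped and the Ogdh libraries lay apart below them. At day 0 the shOgdh2081 libraries, at 87.9 to 93.7 CPM, already lay below the lowest control library. Tars2 changed by -0.40 ± 0.095 (SE; adjusted p = 0.0102), the mean net value. Ears2 (ENSMUSG00000030871, chromosome 7, 122037213 to 122067263, minus strand), the mitochondrial glutamyl-tRNA synthetase, stood at 20.697, 17.9, 19.05 and 19.4 CPM with the control, 20.5, 19.2, 19.7 and 16.8 with shOgdh346 and 18.8, 17.5, 23.1 and 21.2 with shOgdh2081 at day 0. Its day 4 levels were 20.2, 17.03, 20.6 and 18.8 CPM with the control, 11.02, 10.4, 13.04 and 13.7 with shOgdh346 and 12.3, 10.9, 11.4 and 11.6 with shOgdh2081. These are low levels, and the Ogdh and control groups did not overlap. Ears2 changed by -0.72 ± 0.18 (SE; adjusted p = 0.0124), and its gene overlaps Ubfd1 on the opposite strand.

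Hars2 (ENSMUSG00000019143, chromosome 18, 36783008 to 36792562, plus strand), the mitochondrial histidyl-tRNA synthetase, stood at 30.3, 29.5, 31.4 and 37.3 CPM with the control, 35.7, 39.05, 40.4 and 42.6 with shOgdh346 and 35.05, 32.9, 32.3 and 36.2 with shOgdh2081 at day 0. The libraries of day 4 read 39.5, 34.97, 37.1 and 42.1 CPM with the control, 32.2, 30.9, 30.5 and 32.4 with shOgdh346 and 28.2, 30.8, 30.5 and 30.7 with shOgdh2081. The groups overlapped at day 0 and were apart at day 4. Hars2 had a mean net change of -0.52 ± 0.12 (SE; adjusted p = 0.00738). Without control clone 2 the adjusted p-values rose to 0.0829 for Vars2, 0.0871 for Tars2, 0.0768 for Ears2 and 0.108 for Hars2. Without control clone 7 they were 0.071, 0.128, 0.121 and 0.072, so none of these 4 calls held in either fit.

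Of the remaining calls in this set, Mars2 stood at -0.46 ± 0.13 (SE; adjusted p = 0.0246), Yars2 at -0.44 ± 0.12 (SE; adjusted p = 0.0161) and Rars2 at -0.37 ± 0.11 (SE; adjusted p = 0.0328). From day 0 to day 4, Mars2 was called higher with the control hairpin and lower with neither Ogdh hairpin. Yars2 was lost without control clone 2 or 7 (adjusted p = 0.131 and 0.163). Mars2 was lost without either as well (adjusted p = 0.261 and 0.0784) and without any 1 of 3 libraries, with adjusted p-values from 0.0691 to 0.155: clone 2 replicate 1 and clone 7 replicate 1 of the control at day 0, clone 5 replicate 2 of shOgdh2081 at day 0. Rars2 was lost without control clone 2 or 7 or shOgdh2081 clone 5 (adjusted p = 0.111, 0.347 and 0.0517) and without any 1 of 5 libraries, with adjusted p-values from 0.0504 to 0.0683: clone 2 replicate 2 of the control at day 0, clone 5 replicate 1 of shOgdh346 at day 0, clone 3 replicate 1 of shOgdh2081 at day 0, clone 2 replicate 1 and clone 7 replicate 2 of the control at day 4. DESeq2 called none of these 3 (adjusted p = 0.0757 for Mars2, 0.0622 for Yars2 and 0.123 for Rars2), and none was called with unpaired clones (adjusted p = 0.0793, 0.0929 and 0.0515). With day 0 replicate 2 alone the adjusted p was 0.0848 for Mars2 and 0.0826 for Rars2, and with upper quartile scaling it was 0.0511 for Rars2. The 7 genes that were not called were Sars2 at -0.37 ± 0.15 (SE; adjusted p = 0.0802), Nars2 at -0.28 ± 0.15, Pars2 at -0.22 ± 0.18, Aars2 at -0.17 ± 0.12, Fars2 at -0.17 ± 0.16, Cars2 at -0.16 ± 0.17 and Wars2 at -0.076 ± 0.17. Sars2 passed without clone 5 replicate 2 of shOgdh346 at day 4 (adjusted p = 0.0478) and without all of shOgdh346 clone 5 (adjusted p = 0.026), and Cars2 passed without shOgdh2081 clone 5 (adjusted p = 0.0395). Sars2 also passed with total count scaling, each library as a sample, the library number block or day 0 replicate 2 alone (adjusted p = 0.0464, 0.0304, 0.0173 and 0.045). The genes of Cars2 and Fars2 overlap Naxd and Lyrm4 on the opposite strand, and that of Wars overlaps Wdr25.

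Lars2, the mitochondrial leucyl-tRNA synthetase, was singled out after its values were seen, because its libraries disagreed. At day 0 it stood at 107, 109, 109 and 149 CPM with the control, 138, 215, 116 and 129 with shOgdh346 and 114, 122, 123 and 106 with shOgdh2081. At day 4 it stood at 167, 554, 308 and 169.9 CPM with the control, 308, 147, 146 and 181 with shOgdh346 and 218, 121, 195 and 167 with shOgdh2081. The second library of control clone 2 was the highest of all, and the groups overlapped at day 4. The mean net change was -0.84 ± 0.20 (SE; adjusted p = 0.0137), where the change from day 0 to day 4 with the control hairpin alone was 1.35 ± 0.16 (SE; adjusted p = 0.00679). The call was lost without any 1 of 5 libraries, with adjusted p-values from 0.059 to 0.289: clone 7 replicate 1 of the control at day 0, clone 2 replicate 1 and clone 2 replicate 2 and clone 7 replicate 1 of the control at day 4, clone 1 replicate 2 of shOgdh346 at day 4. It was lost too without control clone 2 (adjusted p = 0.0586), and without that clone's second day 4 library the estimate was -0.29. Lars2 was also not called with each library as a sample, the library number block or day 0 replicate 2 alone (adjusted p = 0.126, 0.139 and 0.126). CT010467.1, annotated as ribosomal RNA, stood at 448, 1663, 834 and 292 CPM in the 4 control libraries at day 4, where Gm15564 stood at 42.7, 156, 87.6 and 46.1. With shOgdh346 at day 4, CT010467.1 stood at 960.4, 328, 367 and 309.7, and with shOgdh2081 at 576, 258, 523 and 254. The highest libraries of Lars2 within each hairpin were also the highest of these transcripts at day 4. Gm15564 and CT010467.1 were picked from 7487 genes because their differences between a clone's libraries followed those of Lars2 most closely. The Pearson correlations were 0.984 and 0.965. The match between libraries therefore follows from the choice and is no separate evidence. The part of these transcripts in the result was not tested. Without Lars2, the median of the other 15 mitochondrial genes was -0.37. Their summed level at day 4 was 548 to 599 CPM with the control, 390.3 to 432 with shOgdh346 and 438 to 484 with shOgdh2081, with no overlap between the control and the Ogdh groups.

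**Figure D4:**
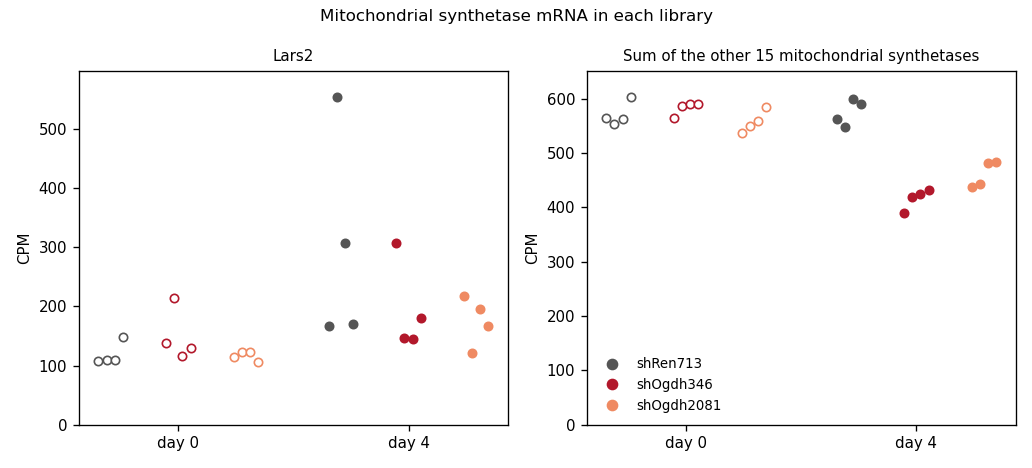
Lars2, and the summed level of the other 15 mitochondrial synthetases, in each library (CPM), by hairpin and day. Lars2 reaches 554 CPM in 1 control library at day 4, while the sum of the others separates control from Ogdh libraries at that day.

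For 14 amino acids both the cytosolic and the mitochondrial enzyme are among the 36 genes, with Farsa taken for phenylalanine. The cytosolic transcript had the more negative mean net change in 12 of the 14 pairs. The difference, cytosolic minus mitochondrial, ran from -0.90 for cysteine to 0.34 for histidine, with a median of -0.44. After cysteine, the widest were tyrosine at -0.61 and asparagine at -0.61. Histidine and serine, at 0.10, were the exceptions, in which the mitochondrial transcript had the lower estimate. In the change from day 0 to day 4, the median difference over the pairs was -0.054 and -0.094 in the control clones, -0.62 and -0.52 in the shOgdh346 clones and -0.33 and -0.69 in the shOgdh2081 clones. Every Ogdh clone therefore showed a wider gap than either control clone. For histidine, this difference was -0.56 and -0.61 in the control clones, -0.43 and -0.22 with shOgdh346 and 0.010 and -0.34 with shOgdh2081. Single pairs were not tested.

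**Figure D5:**
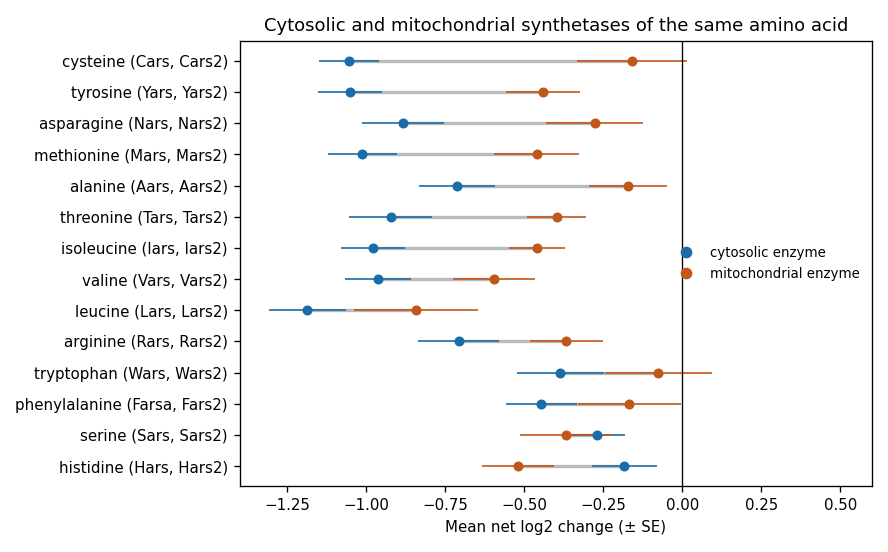
Mean net log2 change of the cytosolic and the mitochondrial synthetase for each of 14 amino acids, with standard errors. The cytosolic point lies further left in 12 of the 14 pairs, with histidine and serine as the exceptions.

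Each hairpin was then read by itself. With shOgdh346, 17 of 20 cytosolic and 10 of 16 mitochondrial synthetases were called lower (background 18.4%), with medians of -0.83 and -0.51. With shOgdh2081 the counts were 14 of 20 and 4 of 16 (background 14.2%), with medians of -0.60 and -0.24. None was called higher with either, where 16.4% and 13.6% of all genes were, and none was higher at an unadjusted p under 0.05. Both contrasts share the control clones. Cars changed by -1.25 ± 0.11 with shOgdh346 and -0.86 ± 0.11 with shOgdh2081, Lars by -1.28 ± 0.14 and -1.09 ± 0.14, and Iars2 by -0.68 ± 0.10 and -0.24 ± 0.10. When the hairpins were compared directly, none of the 36 genes was called, where 0.0491% of all genes were called lower and 0.0561% higher with shOgdh346. At an unadjusted p under 0.05, 7 were lower with shOgdh346 and none was higher, and DESeq2 and limma-voom called 0. The widest differences were -0.44 ± 0.10 (SE; adjusted p = 0.195) for Iars2 and -0.43 ± 0.12 (SE; adjusted p = 0.291) for Vars. A missed threshold does not show that the hairpins act alike. With each library taken as a sample 5 genes were called, and with the library number as a further block 12.

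Single clones weighed on the counts by hairpin as well. The share of all genes called in fits that leave out a clone or library is not given, here or for the comparisons below. A fall in a count is therefore not shown to be particular to the synthetases. For shOgdh346, the mitochondrial count fell from 10 to 2 without control clone 2, to 2 without control clone 7 and to 4 without its own clone 1. For shOgdh2081, the cytosolic count fell from 14 to 9 without either control clone. Its mitochondrial count fell from 4 to 0 and 1 without control clones 2 and 7, to 1 and 2 without its own clones 3 and 5, and to 2 without any 1 of 3 control libraries: clone 2 replicate 2 or clone 7 replicate 1 at day 0, or clone 2 replicate 1 at day 4.

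Over the same 4 days with the control hairpin, few synthetases were called. None was called lower and 2 were called higher, against 2.44% and 4.44% of all genes. These were Lars2, described above, and Mars2, the mitochondrial methionyl-tRNA synthetase, at 0.45 ± 0.11 (SE; adjusted p = 0.0444). At an unadjusted p under 0.05, 6 synthetases were lower and 4 higher, and DESeq2 called 2 in all and limma-voom 3. The medians were -0.035 for the cytosolic and 0.011 for the mitochondrial set. The count of 2 was unstable: it became 4 or 5 without any 1 of the Ogdh clones, without control day 0 clone 2 replicate 2 or clone 7 replicate 2, or without shOgdh346 day 4 clone 1 replicate 1. It became 1 without either control clone, without clone 2 replicate 1 of the control at day 0 or day 4, without clone 1 replicate 2 or clone 5 replicate 1 of shOgdh346 at day 0, without clone 3 replicate 1 or clone 5 replicate 2 of shOgdh2081 at day 0, or without clone 5 replicate 1 of shOgdh346 at day 4. Without clone 7 replicate 1 of the control, at day 0 or at day 4, it became 0.

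The changes from day 0 within the Ogdh hairpins were wider. With shOgdh346, 19 of 20 cytosolic (all but Dars) and 12 of 16 mitochondrial synthetases were called lower and none higher, against 29.3% and 30.2% of all genes, with medians of -0.92 and -0.43. None was higher at an unadjusted p under 0.05, and of the other tools DESeq2 called 1 higher and limma-voom 0. With shOgdh2081, 18 of 20 and 6 of 16 were called lower and 1, Lars2, higher, against 25.9% and 27.5%, with medians of -0.67 and -0.20. Dars, for aspartate, stood at -0.13 ± 0.08 (SE; adjusted p = 0.189) with shOgdh346 and at -0.11 ± 0.08 (SE; adjusted p = 0.275) with shOgdh2081. The count of 1 higher with shOgdh2081 became 0 without its clone 5, without its day 4 clone 3 replicate 1, or without control clone 7 replicate 1 at day 0 or day 4 or clone 2 replicate 1 at day 4. The count of 0 higher with shOgdh346 became 1 without control clone 2 or 7, or without any 1 of 6 libraries: clone 7 replicate 2 of the control at day 0, clone 2 replicate 2 or clone 7 replicate 2 of the control at day 4, clone 1 replicate 2 of shOgdh346 at day 0 or day 4, or its clone 5 replicate 1 at day 4.

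Levels were also compared within each day, on the 6 clones of that day. Before doxycycline the sets stood close together, with a median difference from the control of 0.016 and -0.02 for shOgdh346 and 0.029 and -0.033 for shOgdh2081. edgeR called none of the 36 genes at day 0 for either hairpin, where 0.0% of 13125 genes were called in either direction. At an unadjusted p under 0.05 there was 1 gene, a mitochondrial one higher with shOgdh346, and none with shOgdh2081, and DESeq2 and limma-voom called 0. At day 4, shOgdh346 lay lower for 11 cytosolic and 5 mitochondrial synthetases, against 11.5% of 13747 genes, and shOgdh2081 for 9 and 2, against 6.78%. None was higher with either hairpin, where 11.3% and 7.04% of genes were, nor at an unadjusted p under 0.05, nor by DESeq2 or limma-voom. The counts below from fits without a clone have no share of all genes beside them. The 16 genes called with shOgdh346 became 0 without control clone 2 or shOgdh346 clone 1, 3 without control clone 7 and 5 without shOgdh346 clone 5. The 11 called with shOgdh2081 became 0 without control clone 2, control clone 7 or shOgdh2081 clone 3, 3 without its clone 5, and 4 without shOgdh346 clone 1 or 5. Library by library, all 8 Ogdh libraries lay below all 4 control libraries at day 4 for 16 of 20 cytosolic genes (not for Hars, Qars, Sars or Wars) and 6 of 16 mitochondrial ones (Ears2, Hars2, Iars2, Rars2, Tars2 and Vars2), a separation seen in 20.1% of all genes. None was separated upward, as 16.8% of all genes were, and at day 0 no synthetase was separated in either direction, where 0.323% of genes lay below and 0.239% above. The change from day 0 to day 4 was also compared by clone. It was more negative in every Ogdh clone than in both control clones (8 of 8 pairings) for 18 cytosolic genes, all but Hars and Wars. The same held for 11 mitochondrial ones. The share of all genes with this pattern was not counted, so these counts have no background beside them.

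At day 0, the cytosolic synthetases were the more abundant set. Levels are given here as CPM per kilobase of the deposited transcript length, the mean and SD over the 6 clones at day 0. These lengths, such as 18102 bases for Eprs, were not checked against the transcripts made in these cells. The order and the ratios below depend on them. Nars led at 168 ± 10.9, followed by Gars at 100.1 ± 9.52, Vars at 76.8 ± 6.34 and Lars at 68.8 ± 4.54. The lowest cytosolic genes were Sars at 29.1 ± 2.68, Eprs at 25.5 ± 1.26 and Cars at 15.99 ± 1.22. The mitochondrial set began just under them with Iars2 at 15.01 ± 1.27, Rars2 at 13.6 ± 0.716 and Tars2 at 13.5 ± 0.616, and ended with Fars2 at 2.62 ± 0.244 and Nars2 at 2.25 ± 0.211. The medians of the sets were 51.2 and 6.85. In this order of 36, 27 of 35 neighbours had overlapping ranges over the clones, so their order is not settled. The 8 steps without overlap lay below Nars, Gars, Farsa, Eprs, Aars2, Vars2, Cars2 and Pars2, and the step from Cars to Iars2 was not one of them. Within pairs, the ratio of the cytosolic to the mitochondrial level ran from 2.70 for threonine to 74.7 for asparagine. For asparagine the deposited lengths were unlike, at 2632 bases for Nars and 6967 for Nars2.

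Genes that work beside the synthetases were read from lists of known function, against the same background as the mean net change of the 36 genes. Of the 4 genes that complete mitochondrial aminoacyl-tRNAs, the glutaminyl amidotransferase subunits Gatb and Qrsl1 changed by -0.94 ± 0.14 (SE; adjusted p = 0.00122) and -0.76 ± 0.13 (SE; adjusted p = 0.00247), Gatc passed narrowly at -0.36 ± 0.12 (SE; adjusted p = 0.0441), and the formyltransferase Mtfmt was not called at -0.052 ± 0.13. Gatc lost its call without any 1 of 10 libraries, with adjusted p-values from 0.0507 to 0.0932: clone 2 replicate 1 and clone 2 replicate 2 and clone 7 replicate 1 and clone 7 replicate 2 of the control at day 0, clone 1 replicate 2 and clone 5 replicate 2 of shOgdh346 at day 0, clone 3 replicate 1 and clone 5 replicate 1 of shOgdh2081 at day 0, clone 2 replicate 1 and clone 7 replicate 2 of the control at day 4. It also lost it without either control clone, shOgdh346 clone 5 or shOgdh2081 clone 3 (adjusted p = 0.21, 0.288, 0.0637 and 0.062). Gatc was not called with RLE scaling, upper quartile scaling, no filter on low counts or a filter of 5 CPM (adjusted p = 0.0626, 0.0731, 0.0831 and 0.0698). Nor was it with DESeq2, unpaired clones or day 0 replicate 2 alone (adjusted p = 0.171, 0.0678 and 0.112). Of 4 editing factors, which clear mischarged tRNA, Dtd1 was called lower at -0.83 ± 0.15 (SE; adjusted p = 0.00301) and so was Aarsd1 at -1.16 ± 0.37 (SE; adjusted p = 0.035), while Dtd2 and Prorsd1 stood at -0.16 ± 0.18 and -0.04 ± 0.13. Aarsd1 lost its call without any 1 of 4 libraries, with adjusted p-values from 0.0518 to 0.135: clone 2 replicate 1 and clone 7 replicate 1 of the control at day 0, clone 3 replicate 2 of shOgdh2081 at day 0, clone 2 replicate 1 of the control at day 4. The same held without control clone 2 or 7, shOgdh346 clone 1 or shOgdh2081 clone 3 (adjusted p = 0.347, 0.0618, 0.0669 and 0.0684). DESeq2, unpaired clones and day 0 replicate 2 alone also ended the call for Aarsd1 (adjusted p = 0.189, 0.0569 and 0.144), and unpaired clones that for Dtd1 (0.0566).

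For selenocysteine, which is made on its tRNA, 2 of 4 genes were called lower, Sepsecs at -0.53 ± 0.13 (SE; adjusted p = 0.00969) and Eefsec at -0.53 ± 0.11 (SE; adjusted p = 0.00449). Sepsecs lost its call without either control clone (adjusted p = 0.0737 and 0.109) and Eefsec without control clone 7 (adjusted p = 0.0974). With unpaired clones the adjusted p of Sepsecs was 0.0513. Among 5 genes of tRNA export and maturation, the exportin Xpot changed by -0.76 ± 0.089 (SE; adjusted p = 0.000365), the CCA-adding enzyme Trnt1 by -0.61 ± 0.11 (SE; adjusted p = 0.00236) and the 3′ processing nuclease Elac2 by -0.58 ± 0.13 (SE; adjusted p = 0.00858), while Trmt10c and Hsd17b10 were not called. The library number block gave both a call (adjusted p = 0.012 and 0.0418), and Trmt10c had one with total count scaling or each library as a sample (0.0361 and 0.0368). Elac2 lost its call without control clone 7 (adjusted p = 0.0923). Of 6 elongation factors that carry aminoacyl-tRNA to the ribosome or recharge its carrier, 4 were called lower: Eef1d at -0.82 ± 0.15 (SE; adjusted p = 0.00385), Tsfm at -0.77 ± 0.14 (SE; adjusted p = 0.00314), Eef1g at -0.65 ± 0.18 (SE; adjusted p = 0.0223) and Tufm at -0.63 ± 0.14 (SE; adjusted p = 0.00724). Without control clone 2 the adjusted p was 0.0895 for Eef1g and 0.0775 for Tufm, and without control clone 7 it was 0.151 and 0.0528. Eef1g was not called either with unpaired clones or day 0 replicate 1 alone (adjusted p = 0.055 and 0.0508). Eef1a1 and Eef1b2 were not called, at -0.67 ± 0.28 and -0.35 ± 0.15, and each was called without shOgdh346 clone 5 (adjusted p = 0.0187 and 0.027) or shOgdh2081 clone 3 (adjusted p = 0.0409 and 0.0365), and Eef1b2 also without clone 5 replicate 1 of shOgdh346 at day 4 (adjusted p = 0.0491). Both were called with no filter on low counts (adjusted p = 1.27e-07 and 0.0135), each library as a sample (0.00417 and 0.00732) or the library number block (0.00592 and 0.000736). Eef1b2 was called with total count scaling or day 0 replicate 2 alone as well (0.0324 and 0.0462).

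The response to uncharged tRNA was mixed, with 4 of its 9 measured genes called lower and 1 higher. Asns, the asparagine synthetase and a standard ATF4 target, changed by -2.001 ± 0.12 (SE; adjusted p = 2.26e-05), and Chac1, another target, by -1.36 ± 0.27 (SE; adjusted p = 0.00453). Atf4 itself was lower at -0.58 ± 0.15 (SE; adjusted p = 0.0151), and Gcn1l1, the partner of GCN2, at -0.31 ± 0.10 (SE; adjusted p = 0.0372). Sesn2, an inhibitor of mTORC1, was higher at 0.58 ± 0.15 (SE; adjusted p = 0.0144). Eif2ak4 and the stress-response genes Ddit3, Trib3 and Cebpg were not called, at 0.13 ± 0.11, 0.70 ± 0.25, -0.40 ± 0.29 and -0.38 ± 0.17. The genes of this list were not sorted into ATF4 targets and others. The falls of Asns and Chac1 therefore do not stand for ATF4 targets in general. Without control clone 2 or 7, Atf4 lost its call (adjusted p = 0.138 and 0.0736), as did Sesn2 (adjusted p = 0.0616 and 0.155), and without clone 2 so did Chac1 (adjusted p = 0.0576). Gcn1l1 lost its call without any 1 of 4 libraries, with adjusted p-values from 0.0514 to 0.0643: clone 7 replicate 1 of the control at day 0, clone 5 replicate 2 of shOgdh346 at day 0, clone 5 replicate 1 of shOgdh346 at day 4, clone 3 replicate 1 of shOgdh2081 at day 4. It was lost too without control clone 2 or 7, shOgdh346 clone 1 or shOgdh2081 clone 5 (adjusted p = 0.234, 0.189, 0.0695 and 0.0505). RLE scaling, upper quartile scaling, a filter of 5 CPM and DESeq2 each ended the call for Gcn1l1 (adjusted p = 0.0588, 0.0583, 0.0578 and 0.097). Ddit3 was called higher without any 1 of 8 libraries, with adjusted p-values from 0.0147 to 0.0446: clone 2 replicate 2 and clone 7 replicate 2 of the control at day 0, clone 5 replicate 1 of shOgdh346 at day 0, clone 3 replicate 2 and clone 5 replicate 1 of shOgdh2081 at day 0, clone 7 replicate 2 of the control at day 4, clone 5 replicate 1 of shOgdh346 at day 4, clone 5 replicate 1 of shOgdh2081 at day 4. Without shOgdh2081 clone 5 its adjusted p was 0.0053. Ddit3 was called with upper quartile scaling, no filter on low counts, a filter of 5 CPM, each library as a sample or the library number block too (adjusted p = 0.0436, 0.00225, 0.0468, 0.0225 and 0.00297). Cebpg was called lower without clone 1 replicate 1 of shOgdh346 at day 0 (adjusted p = 0.00618) or without that clone (adjusted p = 0.00827). Cebpg was called with no filter on low counts or the library number block (adjusted p = 0.0163 and 0.00919), and Trib3 with day 0 replicate 2 alone (0.0471).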

How the data were processed

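Polyadenylated RNA was sequenced as single-end reads on an Illumina instrument, per the labels' protocols. The authors deposited 1 table of read counts per gene for 24 libraries, with gene coordinates and a transcript length (in bases) beside the counts. The builds mm10 and GRCm38 and the tools featureCounts (1.6.3), STAR (2.6.1a), Trimmomatic (0.36) and FastQC (0.11.5) are named, per the submitters' processing notes, without their roles or order. The labels' protocols name other steps, among them a human genome and an RPKM matrix, which the mouse gene identifiers and whole-number values do not match. The strand setting is not given in the sources used here, so genes that overlap another gene are uncertain (9 of the 36 overlap a gene above 1 CPM).

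The counts of the 2 libraries from each clone at each time were added up, leaving 12 sums. edgeR 4.0.16 (R 4.3.3) was run with its expression filter, TMM factors (0.952 to 1.04) and robust quasi-likelihood fits, with a block for each clone and a day 4 term for each hairpin. Residual degrees of freedom were 3, with a median prior of 6.11. Clones are paired over days by design; across the 14249 genes, deviations of the paired sums correlated at 0.904, 0.592 and 0.682 for shRen713, shOgdh346 and shOgdh2081. Levels within a day were fitted on the 6 sums of that day. P-values were adjusted over all genes tested by the Benjamini-Hochberg method, and the threshold was 0.05. The code was tested on simulated data. Alternatives were other scalings, filters, blocks and sample units, DESeq2 1.42.0, limma-voom (limma 3.58.1), and leaving out each library or clone.

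Library values are printed for Ogdh, for the 6 cytosolic and 5 mitochondrial genes with the smallest p in the mean net change, for the 3 with the smallest p in the difference between the hairpins (none of them additional), and for the 2 genes that serve both compartments; Lars2 was added after its values were seen. Up to 3 genes a related list were to be named by the smallest p, and the rest named beside them complete their lists. The 36 genes, the lists and the naming rule were chosen with earlier results of these data known. Promoters were taken from RefSeq. No entry was used for Cars, Hars, Hars2, Lars, Nars, Pars2, Rars, Vars and Wars. Of these, Hars, Hars2, Lars and Nars lie on chromosome 18, which was left out.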

Additional observations from a re-analysis of the deposited data

Results flagged for a closer look

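Of 102 sets of 4 libraries examined, 7 held a library whose gap to its nearest neighbour took up most of the range. For 4 independent values of 1 normal distribution, about 1 set in 20 would do so by chance. The libraries of a set come from 2 clones and the sets share genes, so that rate need not hold here. Tars2 gave 3 of them: 100.557 CPM in clone 7 replicate 2 of the control at day 4, above the other libraries, 59.224 CPM in clone 1 replicate 1 of shOgdh346 at day 4, below them, and 87.887 CPM in clone 3 replicate 2 of shOgdh2081 at day 0, also below. Hars2 stood at 28.248 CPM in clone 3 replicate 1 of shOgdh2081 at day 4, under the other 3 libraries. Lars2 stood at 148.824 CPM in clone 7 replicate 2 of the control at day 0, above the other 3. The summed mitochondrial set was highest in that same library, at 751.723 CPM, and in clone 1 replicate 2 of shOgdh346 at day 0, at 801.66 CPM.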

How the results depend on the processing

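Across 43 alternatives, not all of which apply to every result, the counts and medians of the 2 sets gave 1086 values. Of these, 1004 stayed within 1.5 times the reported count or 1 SD of the reported median. Only the medians could change sign, and neither did. For the 36 genes' mean net change, 1412 of 1512 values stayed on the same side of the threshold, 66 lost a call, 34 gained one and none was called higher. With no replicate block, so that clones were unpaired, the mitochondrial count was 5 for the mean net change, 5 for shOgdh346 and 0 for shOgdh2081, the cytosolic count for shOgdh2081 was 8 and the control's count 1. With the library number as a further replicate block, 7 mitochondrial genes were called for shOgdh2081, 12 genes differed between the hairpins, 10 changed with the control and 3 rose with shOgdh2081. DESeq2 gave 6 and 2 mitochondrial calls for shOgdh346 and shOgdh2081 and 1 gene higher from day 0 with shOgdh346. Upper quartile scaling gave 2 mitochondrial calls for shOgdh2081. With day 0 replicate 2 alone, that count was 2, the control's 0 and the higher count with shOgdh2081 0. With day 0 replicate 1 alone, the control's count was 5 and the higher count with shOgdh346 was 1. Without a filter on low counts these were 5 and 1, and at a filter of 5 CPM the latter was 1. With each library as a sample, 5 genes differed between the hairpins, 9 changed with the control, and 30 and 21 were lower at day 4 with shOgdh346 and shOgdh2081, against 25 and 18 with all 6 groups in 1 fit. The cause was not tested in any of these. Shares of all genes called under these alternatives are not given here.

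Leaving out 1 library or clone at a time, the mean net counts ran from 13 to 18 (cytosolic) and 1 to 10 (mitochondrial), those of shOgdh346 from 13 to 19 and 2 to 10, and those of shOgdh2081 from 9 to 15 and 0 to 6. The control's count ran from 0 to 5, the higher counts from day 0 from 0 to 1 with shOgdh346 and 0 to 1 with shOgdh2081, and the lower counts at day 4 from 0 to 17 and 0 to 12. The medians of the sets ran from -0.82 to -0.62 and from -0.44 to -0.36. With 2 clones a hairpin, a lone control clone left few mitochondrial calls, and counts as low as 55 in a library limit what can be said of the rarest transcripts.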

Other observations

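Between the 2 libraries of a clone at day 0, the median of the cytosolic set was lower in replicate 2 than in replicate 1 in all 6 clones. The difference ran from -0.15 to -0.077 on the log2 scale.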
